A study of Mus musculus with 8 samples.

Results

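The enzymes that write and erase DNA methylation were followed in hematopoietic stem cells (HSCs) of mice lacking MITOL, a ubiquitin ligase of the outer mitochondrial membrane that is encoded by Marchf5. The members were the 7 rows of the count table, of 22065 named genes, whose symbols are Dnmt1, Uhrf1, Dnmt3a, Dnmt3b, Tet1, Tet2 and Tet3. All 7 passed the expression filter. RNA-seq was done on 4 Mitol KO and 4 Control libraries, each from 100 HSCs sorted from bone marrow as Lineage-, CD48-, CD150+ and EPCR+. All mice were C57BL/6, carried Mitol Flox/Flox, were 8 to 10 weeks old and received Poly:IC, with cells taken 1 week later. Mitol KO mice carried MX1-cre, and the Control mice were littermates without it. The floxed allele and the Poly:IC injection were thus shared by both groups. MX1-cre is driven by an interferon-inducible promoter and also acts in cells other than blood. The labels do not say whether the libraries of a group came from separate mice, so p-values measure the spread between these libraries, which may be technical.

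DNMT1 copies methylation onto newly made DNA strands, and UHRF1 brings it to hemimethylated sites behind the replication fork. DNMT3A and DNMT3B place methylation on sites that had none, and TET1, TET2 and TET3 oxidise methylcytosine with 2-oxoglutarate and iron as cofactors, a step towards its removal. In blood, DNMT3A and TET2 are best known as genes whose loss lets HSC clones expand, while DNMT1 is needed for HSCs to self-renew.

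The maintenance genes rose in Mitol KO HSCs, Dnmt1 by 1.71-fold and Uhrf1 by 2.17-fold, and Tet3 fell with a log2 fold change of -0.31. Dnmt3a, Dnmt3b, Tet1 and Tet2 did not pass the test. Thus 3 of 7 members were called, 2 higher and 1 lower, beside 8.43% of the 16444 genes tested (4.68% higher and 3.75% lower). Genes were tested by edgeR's quasi-likelihood method, with p-values adjusted after Benjamini and Hochberg over all genes tested, and a gene was called at an adjusted p-value under 0.05. Fold changes are Mitol KO against Control, and normalised counts are raw counts scaled by DESeq2's size factors. In bulk libraries, a change in the number of cells that express a gene and a change in RNA per cell cannot be told apart.

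All 8 libraries expressed the sorting and identity genes of HSCs, with Procr, which encodes EPCR, between 387 and 719 normalised counts and Slamf1, which encodes CD150, between 299 and 669. Of 10 such markers, 0 rose and 3 fell, among them Kit and Hlf (log2 fold changes of -0.75 and -0.79 by edgeR). Kit encodes CD117, or c-Kit, which the paper also includes in its gate for long-term HSCs. Slamf1 and Ly6a, which encodes SCA-1, had log2 fold changes of 0.56 and 0.76 that did not pass (adjusted p = 0.0501 and 0.0605 by edgeR). Counts on named genes ran from 7214935 to 12398138 per library. The targeted gene Marchf5, on chromosome 19 of GRCm39 from 37184461 to 37201855, had 276, 232, 308 and 281 normalised counts in Mitol KO and 299, 312, 333 and 262 in Control replicates 1 to 4, which is a log2 fold change of -0.15 (adjusted p = 0.498, edgeR). Counts per gene cannot separate its deleted exons from the others. Mitol KO replicate 3 stood apart in red-cell transcripts, with 1048 normalised counts of Hbb-bs and 388 of Hba-a1, where no other library exceeded 19.7 and 7.91.

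The sequences around the transcription starts are shown here because Dnmt1 and Uhrf1 moved together and Tet3 moved the other way. They cover 250 bases before and 50 after an annotated start and come from RefSeq on GRCm38.p6, where 12 windows matched the 7 members. Capitals mark every match, on either strand, to the E2F-type motif TTTNNCGC, where N is any base. It is a loose form of the letters bound by E2F factors at many S-phase genes.
Dnmt1 (chr9:20952574-20952873, minus strand): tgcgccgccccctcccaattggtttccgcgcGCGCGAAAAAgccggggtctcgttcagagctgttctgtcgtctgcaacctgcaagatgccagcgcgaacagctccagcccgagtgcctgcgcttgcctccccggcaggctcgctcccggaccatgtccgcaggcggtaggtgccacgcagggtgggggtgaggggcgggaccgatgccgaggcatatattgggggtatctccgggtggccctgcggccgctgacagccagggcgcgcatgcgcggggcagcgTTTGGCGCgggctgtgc
Uhrf1, upstream start (chr17:56303087-56303386, plus strand): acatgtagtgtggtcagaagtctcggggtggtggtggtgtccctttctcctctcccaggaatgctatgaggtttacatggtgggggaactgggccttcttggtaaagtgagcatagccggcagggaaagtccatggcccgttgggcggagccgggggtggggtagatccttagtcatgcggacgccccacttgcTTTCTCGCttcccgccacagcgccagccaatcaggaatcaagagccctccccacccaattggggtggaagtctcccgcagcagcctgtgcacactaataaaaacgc
Uhrf1, downstream start (chr17:56304063-56304362, plus strand): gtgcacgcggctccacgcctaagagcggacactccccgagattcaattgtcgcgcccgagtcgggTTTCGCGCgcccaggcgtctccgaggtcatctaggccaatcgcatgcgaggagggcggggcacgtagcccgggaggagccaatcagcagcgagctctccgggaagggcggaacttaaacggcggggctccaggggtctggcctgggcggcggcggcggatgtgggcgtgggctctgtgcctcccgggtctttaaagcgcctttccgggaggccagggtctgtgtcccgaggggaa
Tet3 (chr6:83441629-83441928, minus strand, no match): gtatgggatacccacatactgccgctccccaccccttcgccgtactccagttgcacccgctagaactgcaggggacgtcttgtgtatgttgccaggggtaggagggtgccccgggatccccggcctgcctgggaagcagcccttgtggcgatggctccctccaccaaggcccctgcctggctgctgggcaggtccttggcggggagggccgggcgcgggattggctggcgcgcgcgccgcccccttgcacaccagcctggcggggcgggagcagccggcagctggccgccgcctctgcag

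The motif occurred in 1 of 3 windows of Dnmt1, in 2 of 2 windows of Uhrf1 and in 0 of the 7 windows of the de novo and TET genes. Windows of a gene are not all separate promoters, since windows 1 and 2 of Dnmt3a overlap. It occurs in 5.17% of all 32851 windows of the same length, and in 9.88% of the 8701 windows with at least 20 CG dinucleotides. The Dnmt1 window held 3 matches, of which GCGCGAAA and GCGAAAAA overlap and begin at bases -219 and -217 from the start, and TTTGGCGC begins at base 34. In the Uhrf1 windows the matches were TTTCTCGC, at base -56, and TTTCGCGC, at base -185. These are matches of letters, not sites shown to be bound, and windows without a match say nothing about E2F factors. The NFY motif CCAAT was divided in a like way, in 2 of 3 windows of Dnmt1, 2 of 2 of Uhrf1 and 1 of the 7 others. That makes 5 of the 12 member windows, beside 37.4% of all windows and 32.9% of those with at least 20 CG dinucleotides. The SP and KLF motif GGGCGG was in 10 of 12, beside 35.7% and 80.9% of these. The ETS motif CCGGAAG was in 0 of 12, beside 8.86% and 19.6%. Of the 7 members, Tet2 had the window with the most CG dinucleotides, 57, more than in 99.8% of all windows.

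Dnmt1 lies on the minus strand of chromosome 9 (GRCm39, 20817945 to 20871184). Its normalised counts were 8908, 8887, 5979 and 4270 in Mitol KO replicates 1 to 4. In Control replicates 1 to 4 they were 4944, 3870, 4196 and 3143. Replicates 1, 2 and 3 of Mitol KO lay above every Control library, and Mitol KO replicate 4 lay among the Control libraries, so the groups overlapped. The means were 7011 ± 2287 (SD, n = 4) in Mitol KO and 4038 ± 747 (SD, n = 4) in Control HSCs. The log2 fold change was 0.78 (standard error 0.21, 95% confidence interval 0.33 to 1.23), with an adjusted p of 0.0397 by edgeR. A 2-sided exact permutation test over the 70 arrangements of the libraries gave p = 0.0571, where the smallest p possible is 0.0286. Adjusted after Benjamini and Hochberg over the 7 members, this permutation p was 0.2. Among the 8 leave-one-out fits, in which a single library was dropped, those without Mitol KO replicate 4 (adjusted p = 0.00313) and without Control replicate 1 (adjusted p = 0.0395) passed edgeR's threshold, and the other 6 gave adjusted p-values from 0.0609 to 0.111 with log2 fold changes of at least 0.65.

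Uhrf1 lies on the plus strand of chromosome 17 (GRCm39, 56610275 to 56630489). Its normalised counts were 4748, 4715, 2645 and 1664 in Mitol KO replicates 1 to 4 and 2060, 1862, 1456 and 894 in Control replicates 1 to 4. The order among the Mitol KO libraries was that of Dnmt1, with replicates 1 and 2 highest and replicate 4 inside the Control range. In the Control libraries Uhrf1 likewise fell from replicate 1 to replicate 4. The means were 3443 ± 1541 (SD, n = 4) in Mitol KO and 1568 ± 515 (SD, n = 4) in Control HSCs, and the log2 fold change was 1.12 (standard error 0.31, 95% confidence interval 0.44 to 1.80) with an adjusted p of 0.0464 by edgeR. The 2-sided exact permutation test gave p = 0.0857 (0.2 when adjusted over the 7 members). With DESeq2 the adjusted p was 0.0532, and with limma-voom 0.0606, neither past the threshold. The fits without Mitol KO replicate 4 (adjusted p = 0.00513) and without Control replicate 1 (adjusted p = 0.0488) passed edgeR's threshold, and the other 6 leave-one-out fits gave 0.0656 to 0.125.

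Over the 8 libraries, log2 levels of Dnmt1 and Uhrf1 had a Pearson r of 0.98 and a Spearman rho of 0.93. Without Mitol KO replicates 1 and 2, the libraries farthest from the median of Dnmt1, r was 0.92. It was 1.00 in the 4 Mitol KO and 0.87 in the 4 Control libraries. The libraries share their size factors and the difference between groups, so these values are a description.

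**Figure D1:**
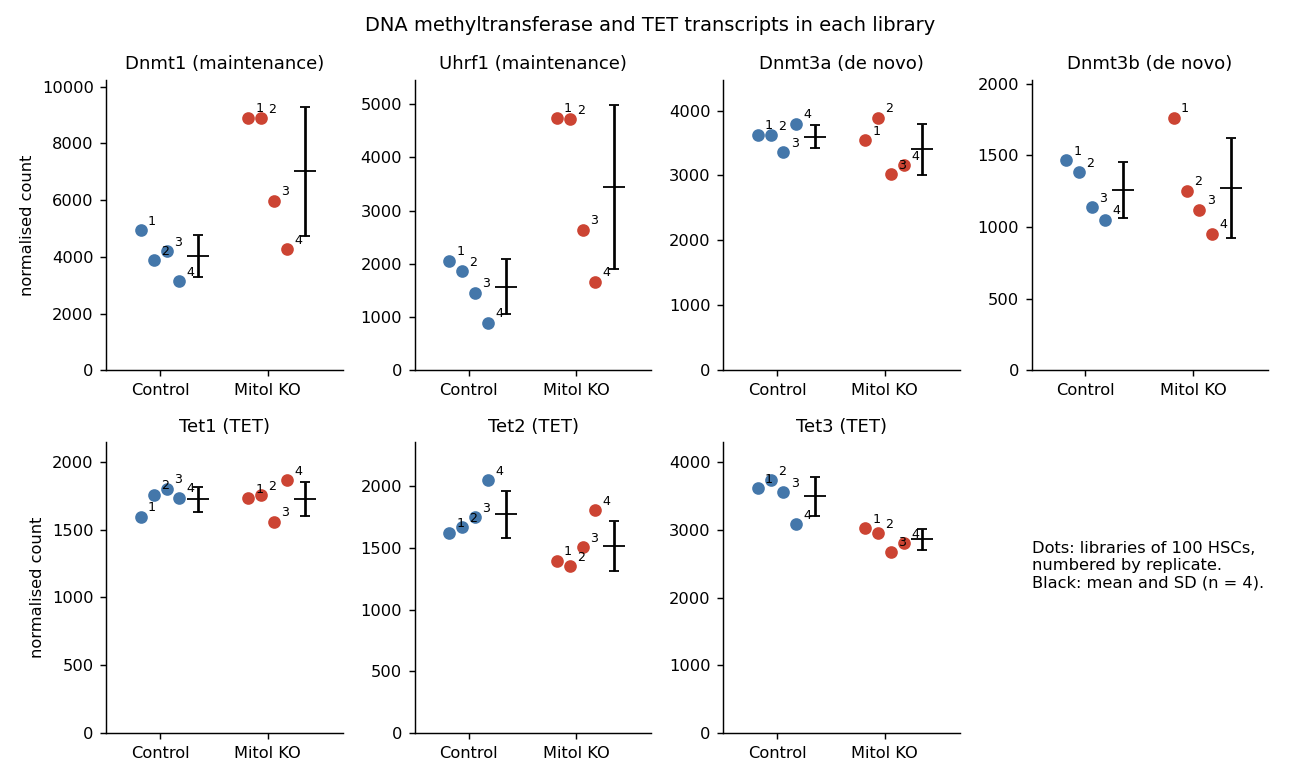
Normalised counts of the 7 members in each library (vertical axes, from 0; each gene has its own scale), with Control libraries in blue, Mitol KO libraries in red and the mean and SD of 4 libraries in black. Mitol KO replicates 1, 2 and 3 lie above all Control libraries for Dnmt1 and Uhrf1, and all 4 Mitol KO libraries lie below all Control libraries for Tet3.

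Dnmt3a lies on chromosome 12 (GRCm39, 3856007 to 3964443). It had 3543, 3892, 3015 and 3162 normalised counts in Mitol KO and 3628, 3622, 3356 and 3795 in Control replicates 1 to 4. The highest library and the lowest were both Mitol KO libraries, so the groups overlapped throughout. Its log2 fold change was -0.10 (standard error 0.091, adjusted p = 0.516 by edgeR), and its 95% confidence interval of -0.30 to 0.096 does not hold a rise of the size fitted for Dnmt1.

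Dnmt3b lies on chromosome 2 (GRCm39, 153490861 to 153529650). It had 1763, 1254, 1121 and 954 normalised counts in Mitol KO and 1468, 1381, 1138 and 1050 in Control replicates 1 to 4. Mitol KO replicate 1 was the highest library and Mitol KO replicate 4 the lowest, around group means of 1273 ± 349 and 1259 ± 197 (SD, n = 4). The log2 fold change was -0.00032 (standard error 0.17, 95% confidence interval -0.37 to 0.37, adjusted p = 0.999 by edgeR), and its sign turned under other settings.

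Tet1 lies on chromosome 10 (GRCm39, 62640349 to 62744775). It had 1732, 1754, 1559 and 1864 normalised counts in Mitol KO and 1594, 1758, 1803 and 1736 in Control replicates 1 to 4. The groups overlapped over nearly their whole ranges. Its log2 fold change was -0.015 (standard error 0.083, 95% confidence interval -0.20 to 0.17, adjusted p = 0.930 by edgeR), with a sign that also turned under other settings.

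Tet2 lies on chromosome 3 (GRCm39, 133169436 to 133250900). Its normalised counts were 1396, 1350, 1508 and 1808 in Mitol KO and 1625, 1668, 1748 and 2048 in Control replicates 1 to 4. Replicates 1, 2 and 3 of Mitol KO lay below every Control library, and replicate 4 lay above Control replicates 1, 2 and 3. The log2 fold change, -0.25 (standard error 0.11, 95% confidence interval -0.49 to 0.00024), did not pass the threshold (adjusted p = 0.190 by edgeR). The 2-sided exact permutation test gave p = 0.143 (0.25 when adjusted over the 7 members). Without Mitol KO replicate 4 the log2 fold change was -0.32 (adjusted p = 0.0497 by edgeR).

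Tet3 lies on chromosome 6 (GRCm39, 83339355 to 83436066). It had 3020, 2954, 2676 and 2800 normalised counts in Mitol KO and 3612, 3732, 3556 and 3083 in Control replicates 1 to 4. All Mitol KO libraries lay below all Control libraries, with Mitol KO replicate 1 and Control replicate 4 nearest to each other. Tet3 was the 1 member of 7 whose groups did not overlap, which was so for 15.4% of the genes tested, 8.17% with Mitol KO higher and 7.18% with it lower. The means were 2862 ± 155 (SD, n = 4) in Mitol KO and 3496 ± 285 (SD, n = 4) in Control HSCs. The log2 fold change was -0.31 (standard error 0.082, 95% confidence interval -0.49 to -0.13), with an adjusted p of 0.0409 by edgeR. The 2-sided exact permutation test gave p = 0.0286, the smallest it can give, and 0.2 when adjusted over the 7 members. Among the leave-one-out fits, that without Control replicate 4 passed edgeR's threshold (adjusted p = 0.0365), and the other 7 gave adjusted p-values from 0.0588 to 0.132 with log2 fold changes from -0.33 to -0.26. Exons of Bola3 on the opposite strand cover 1512 bases, or 9.06%, of the exons of Tet3, and the strand setting of the counting is not known. The log2 fold change of Bola3 itself was 0.076 (adjusted p = 0.803 by edgeR).

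**Figure D2:**
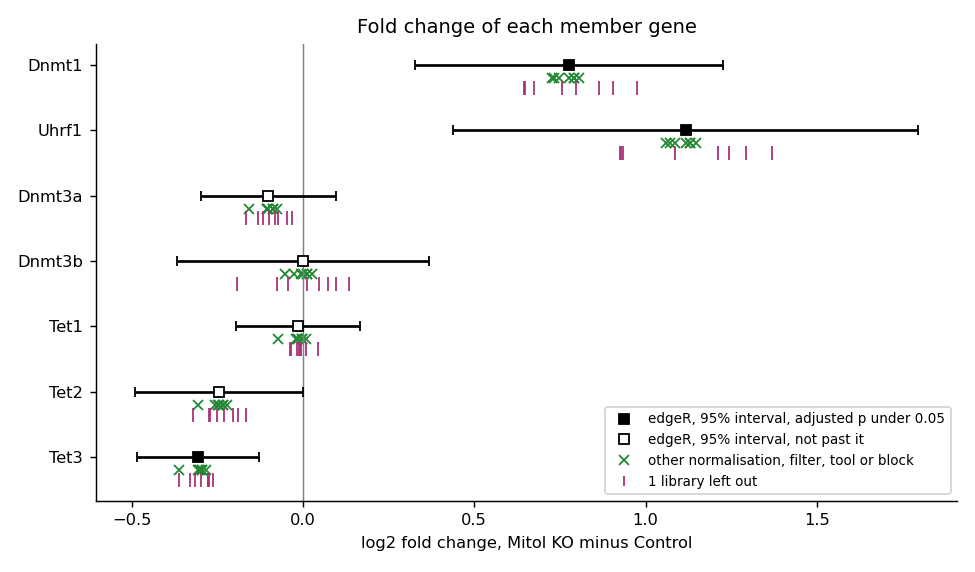
Log2 fold changes of the 7 members, Mitol KO minus Control, with 95% confidence intervals from edgeR's fit over 16444 genes. The intervals of Dnmt1 and Uhrf1 lie above 0, that of Tet3 lies below 0, and those of Dnmt3a, Dnmt3b, Tet1 and Tet2 include 0.

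To compare maintenance with de novo and TET genes inside each library, the mean log2 normalised count of Dnmt1 and Uhrf1 was set against that of the other 5 members. This difference was 1.60, 1.68, 1.11 and 0.45 on the log2 scale in Mitol KO replicates 1 to 4 and 0.55, 0.27, 0.22 and -0.34 in Control replicates 1 to 4. Mitol KO replicate 4 lay just below Control replicate 1, and the other Mitol KO libraries lay above all Control libraries. The group means were 1.21 ± 0.57 and 0.17 ± 0.37 (SD, n = 4), 1.03 apart. Against the de novo genes alone the groups did not overlap, with a mean difference of 0.96, and against the TET genes alone they overlapped, with a mean difference of 1.08. Set gene against gene, Dnmt1 was 0.99 above Dnmt3a on the log2 scale in Mitol KO and 0.15 above it in Control HSCs, and 1.23 and 0.19 above Tet3. No test was run on these differences, since they combine members chosen with results of these data known.

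Per kilobase of exon, Control levels followed the order Dnmt1, Uhrf1, Dnmt3a, Tet3, Dnmt3b, Tet1 and Tet2, at mean normalised counts per kilobase of 475, 297, 211, 209, 203, 111 and 99.9. In that order, Dnmt3b, with 169 or more in every Control library, lay apart from Tet1, with at most 117. All other neighbours overlapped between Control libraries. Mitol KO levels per kilobase were 825 for Dnmt1, 652 for Uhrf1, 205 for Dnmt3b, 200 for Dnmt3a, 171 for Tet3, 112 for Tet1 and 85.4 for Tet2. The order of close neighbours depended on the length used. With the longest annotated transcript in place of all exons, Tet2 stood above Tet1 in Control (181 and 120 per kilobase) and in Mitol KO HSCs (154 and 120.2), and Dnmt3a stood above Dnmt3b in Mitol KO HSCs (343 and 279.9).

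Of the summed level per kilobase of the 3 DNA methyltransferases, Dnmt1 made up 66.2% ± 4.74 in Mitol KO and 53.1% ± 3.96 in Control HSCs (SD, n = 4). The groups did not overlap, with 59.7% in the lowest Mitol KO and 56.5% in the highest Control library. The share of Dnmt3b was 16.9% ± 2.21 in Mitol KO and 22.8% ± 1.68 in Control HSCs, again without overlap, and that of Dnmt3a overlapped between groups. Among the TET genes, Tet3 held the largest share in both groups, 46.6% ± 2.61 in Mitol KO and 49.7% ± 3.53 in Control HSCs. The share of Tet1 was 30.3% ± 0.852 in Mitol KO and 26.5% ± 1.01 in Control HSCs without overlap, although the level of Tet1 itself did not pass the test. With the longest transcript as the length, chosen after seeing the data, the share of Dnmt1 was 62.7% and 49.3% and that of Tet1 22.4% and 19.3% in Mitol KO and Control HSCs, and the groups of Dnmt1, Dnmt3b and Tet1 again did not overlap. Shares of one sum move against each other, so these are not separate results.

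**Figure D3:**
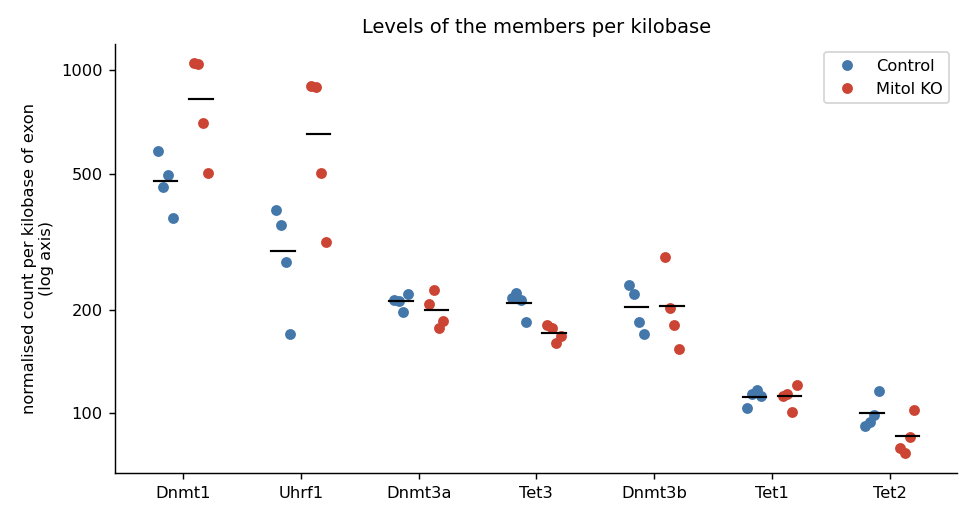
Normalised counts per kilobase of annotated exon for each member, with 1 point per library, Control in blue and Mitol KO in red. In Control libraries, the means run from 475 for Dnmt1 to 99.9 for Tet2.

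DNMT1 and UHRF1 work at replicating DNA, so both genes were set beside 21 genes of DNA replication and proliferation. Of these, 12 rose, 0 fell and 9 did not pass the test, with a median log2 fold change of 0.93, beside -0.020 over all genes tested. Those that rose were the helicase subunits Mcm4 (log2 fold change of 0.83) and Mcm5 (0.93), the ribonucleotide reductase subunits Rrm1 (0.94) and Rrm2 (2.18), Gins1 (0.96) of the replicative helicase, the polymerase subunits Pola1 (0.80) and Pole (0.92), and the division genes Mki67 (1.08), Top2a (1.24), Ccna2 (1.90), Ccnb1 (1.57) and Birc5 (1.44). All 21 had a log2 fold change above 0.

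The mean log2 level of the 21 genes, relative to the Control mean, was 1.39, 1.45, 0.84 and 0.34 in Mitol KO replicates 1 to 4 and 0.069, -0.050, 0.14 and -0.16 in Control replicates 1 to 4. All Mitol KO libraries lay above all Control libraries, in the order in which they stood for Uhrf1 and Dnmt1 except that replicate 2 was here above replicate 1. Dnmt1 lay above this mean by 2.86, 2.79, 2.84 and 2.85 on the log2 scale in Mitol KO replicates 1 to 4, with an SD of 0.028 between libraries. In Control replicates 1 to 4 it lay 3.33, 3.10, 3.03 and 2.91 above it, so relative to the list Dnmt1 was lower in every Mitol KO library, by 0.26 on average. Without Rrm2, the gene of the list with the largest change, the difference was -0.20 and the groups overlapped, an alternative chosen after seeing the data. The list was also divided, after seeing the data, into 5 mitotic genes (Mki67, Top2a, Ccna2, Ccnb1 and Birc5) and the other 16, which act in S phase. The mitotic genes had a mean of 1.55 in Mitol KO HSCs relative to the Control mean, with the groups apart, and the S-phase genes one of 0.84, with Mitol KO replicate 4 (0.17) inside the Control range of -0.33 to 0.26. Dnmt1, at 0.75 on the same scale, lay close to the S-phase genes, and relative to these alone its difference between groups was -0.088, with overlap. Uhrf1 relative to the whole list differed by 0.067 between groups and relative to the S-phase genes by 0.24, with overlap both times. How far the rise of Dnmt1 and Uhrf1 goes with the replication genes was not tested beyond these values.

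**Figure D4:**
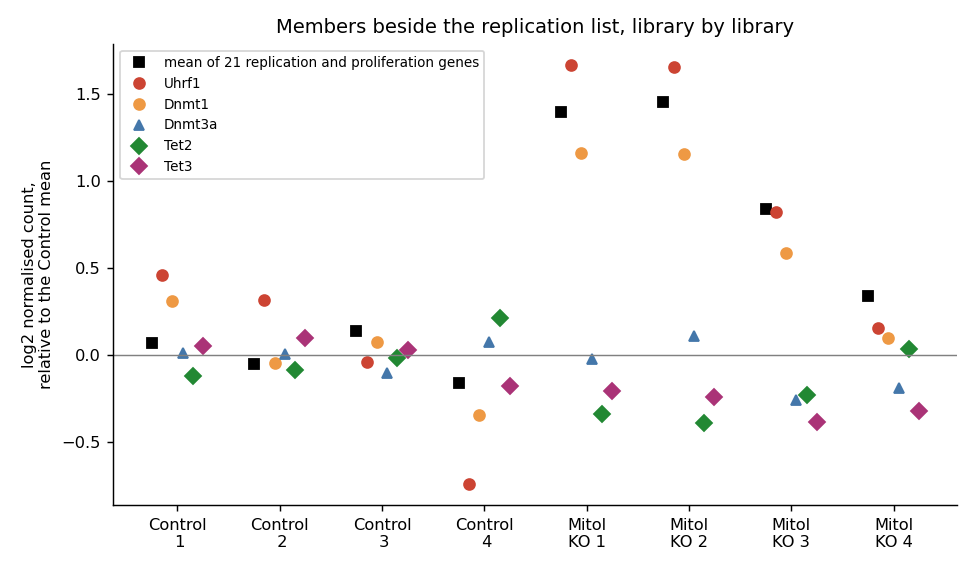
Log2 normalised counts relative to the Control mean, in each library, for the mean of 21 replication and proliferation genes and for Uhrf1, Dnmt1, Dnmt3a, Tet2 and Tet3. In Mitol KO replicates 1, 2 and 3 the list, Uhrf1 and Dnmt1 stand highest, and in Mitol KO replicate 4 the list stands at 0.34, Uhrf1 at 0.15 and Dnmt1 at 0.099.

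Among 12013 tested genes with a mean of at least 50 normalised counts, those whose log2 levels over the 8 libraries were most like Dnmt1 were the glycolytic gene Tpi1 (r = 1.00), the Fanconi anemia gene Fanca, the nuclear import gene Ipo5, the DNA polymerase gene Pold1 and the histone chaperone gene Nap1l1 (r = 0.99 each). For Uhrf1 they were Wdr76 (r = 1.00), the DNA ligase gene Lig1, Csrp1, the exonuclease gene Exo1 and Chchd6 (r = 0.99 each). After the group means were taken out, the closest genes were Tpi1, Ptbp1 and Ran for Dnmt1 and Dna2, Wdr76 and Lig1 for Uhrf1, so that Tpi1, Wdr76 and Lig1 were named both ways. The genes most like Dnmt3a were Flywch2 (r = 0.98), Gnb5, Gm47798, Ephb4 (r = 0.95 each) and AU041133 (r = 0.94), and after the group means were taken out Top2b, Fads1 and Flywch2. Those most like Tet2 were Impact, Gm45479 and Cngb1 (r = 0.98 each), Slc46a3 and Cdc37l1 (r = 0.97 each), and after the group means were taken out Impact, Gm45479 and Uckl1. The points are 8 libraries that share size factors and the difference between groups, and no p is given.

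Among the partners of the DNA methyltransferases, Usp7 and Suv39h2 rose. Of 15 tested cofactors and chromatin partners, 2 rose and 0 fell, with a median log2 fold change of 0.30. Over all 16444 genes tested, 8.43% were called and 15.4% had groups without overlap. Counts of 1 or 2 genes, in this list and those below, are to be read beside these shares. Usp7, a deubiquitinase that stabilises DNMT1 and UHRF1, had 2076, 2040, 1908 and 1915 normalised counts in Mitol KO and 1663, 1558, 1688 and 1475 in Control replicates 1 to 4. The groups did not overlap, and the log2 fold change was 0.30 (standard error 0.078, adjusted p = 0.0390 by edgeR). Suv39h2, a histone H3 lysine methyltransferase of heterochromatin, had 132 ± 9.43 normalised counts in Mitol KO and 74.7 ± 8.96 in Control HSCs (SD, n = 4), without overlap, and a log2 fold change of 0.81 (adjusted p = 0.0202 by edgeR). They passed in 2 and 4 of the 8 leave-one-out fits. The genes of this list that act at the replication fork did not pass. Their log2 fold changes were 0.87 for the ligase gene Lig1 (adjusted p = 0.0645), 0.75 for the chromatin remodeller gene Hells (0.143), 0.70 for its activator Cdca7 (0.0619) and 0.34 for the sliding clamp gene Pcna (0.367), by edgeR. In Lig1, Hells and Cdca7, Mitol KO replicates 1 and 2 were highest, and Mitol KO replicate 4 lay within the range of the Control libraries. For Hells, Mitol KO replicate 3 (505) also lay within it (256 to 516). For Pcna, Mitol KO replicate 3 (507) lay within the Control range of 506 to 650 and replicate 4 (484) below it. Uhrf2, the paralogue of Uhrf1, had 1851 ± 25.7 normalised counts in Mitol KO and 1821 ± 160 in Control HSCs (SD, n = 4), and a log2 fold change of 0.0047 (95% confidence interval -0.17 to 0.18, adjusted p = 0.980 by edgeR). Dnmt3l, the inactive cofactor of the de novo enzymes in germ cells, had at most 8.08 normalised counts in any library and was not tested.

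Among 8 readers of methylated CpG sites, 1 fell, 0 rose and the median log2 fold change was -0.050. Zbtb4, a zinc finger protein that binds methylated CpG and represses transcription, had 447, 519, 647 and 735 normalised counts in Mitol KO and 898, 1073, 993 and 1257 in Control replicates 1 to 4. All Mitol KO libraries lay below all Control libraries. Its log2 fold change was -0.87 (standard error 0.16, adjusted p = 0.0111 by edgeR), and it passed in all 8 leave-one-out fits, which none of the 7 members did. Mbd3, a subunit of the NuRD complex, gave a log2 fold change of 0.39 that did not pass (adjusted p = 0.0575 by edgeR).

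Of 14 tested partners of the TET enzymes and genes of base excision, 1 rose and 1 fell, with a median log2 fold change of 0.13. Ogt, whose product adds O-GlcNAc to proteins and binds TET2 and TET3, had 7211, 7247, 8971 and 11380 normalised counts in Mitol KO and 11020, 12548, 12165 and 12509 in Control replicates 1 to 4. Only Mitol KO replicate 4 reached the Control range, and the log2 fold change was -0.49 (standard error 0.13, adjusted p = 0.0446 by edgeR), past it in 2 of the 8 leave-one-out fits. Gadd45g, a stress-induced gene linked to DNA demethylation, had 28.2, 52.0, 179 and 201 normalised counts in Mitol KO and 25.1, 25.5, 15.1 and 26.9 in Control replicates 1 to 4. Here replicates 3 and 4, not 1 and 2, were the highest of the Mitol KO libraries, and the log2 fold change, 2.29 (standard error 0.55, adjusted p = 0.0287 by edgeR), had adjusted p-values from 3.5e-04 to 0.143 over the settings that kept all libraries. Tdg, the glycosylase that cuts out oxidised cytosine, had 143 ± 10.4 normalised counts in Mitol KO and 108 ± 10.2 in Control HSCs (SD, n = 4), without overlap, and a log2 fold change of 0.40 that did not pass (adjusted p = 0.137 by edgeR). The glycosylase gene Smug1 went the other way, also without overlap, with a log2 fold change of -0.45 (adjusted p = 0.0937 by edgeR). Neil1 and Neil2 had -0.32 and -0.54 (adjusted p = 0.223 and 0.501 by edgeR), with overlap.

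The TET enzymes consume 2-oxoglutarate and are inhibited by succinate, fumarate and 2-hydroxyglutarate. Of 11 enzymes that make or use these metabolites, 3 rose and 0 fell, with a median log2 fold change of 0.31. They were Idh3a of the mitochondrial isocitrate dehydrogenase (0.60, adjusted p = 0.0452), Ogdh, which uses up 2-oxoglutarate (0.46, adjusted p = 0.0397), and the succinate dehydrogenase subunit Sdhb (0.48, adjusted p = 0.0423), all by edgeR and each past it in 2 of the 8 leave-one-out fits. The groups overlapped for Idh3a and Ogdh and did not for Sdhb. Idh2 and Idh1, which make 2-oxoglutarate in mitochondria and cytosol, had log2 fold changes of 0.39 (adjusted p = 0.101) and -0.20 (adjusted p = 0.428) by edgeR.

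The DNA methyltransferases use S-adenosylmethionine and release S-adenosylhomocysteine, which inhibits them. Of 9 tested genes of this supply, 1 rose, 0 fell and the median log2 fold change was -0.016. The gene that rose was Ahcy, which breaks down S-adenosylhomocysteine, with 712, 602, 415 and 370 normalised counts in Mitol KO and 266, 313, 329 and 226 in Control replicates 1 to 4. All Mitol KO libraries lay above all Control libraries, and the log2 fold change was 0.87 (standard error 0.20, adjusted p = 0.0247 by edgeR), past it in 4 of the 8 leave-one-out fits. Mat2a, which makes S-adenosylmethionine, gave a log2 fold change of -0.29 (adjusted p = 0.138), and the related Ahcyl1 and Ahcyl2 had 0.12 and -0.12 (adjusted p = 0.447 and 0.526), by edgeR.

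**Figure D5:**
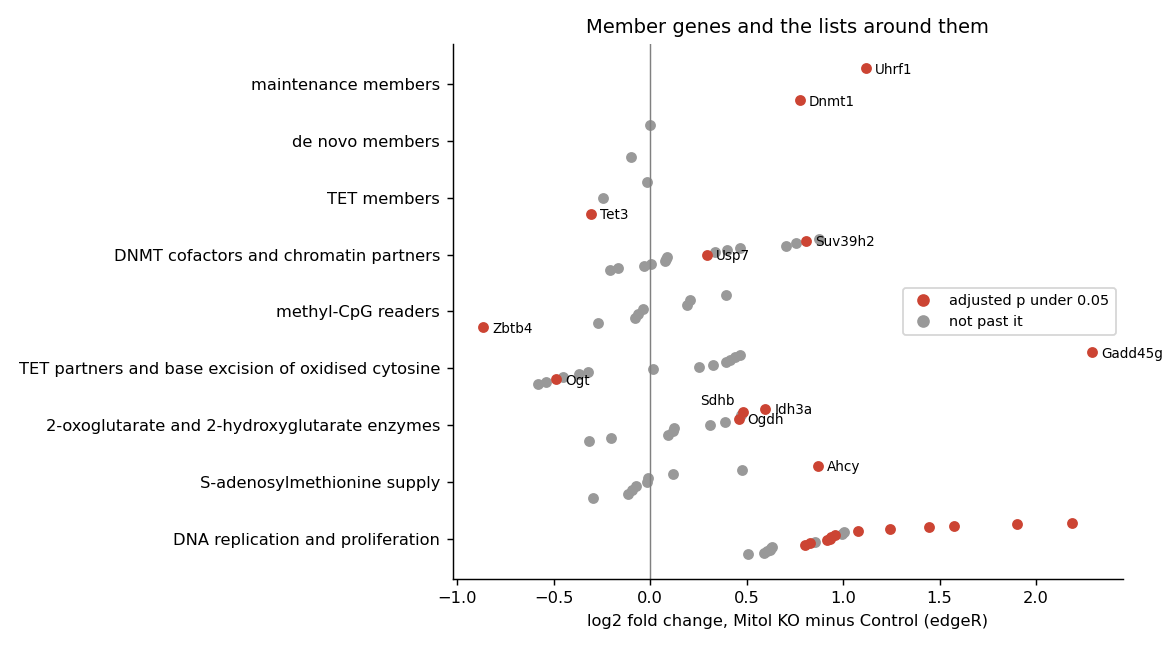
Log2 fold changes, Mitol KO minus Control, of the members and of the tested genes of each list, with 1 point per gene and genes at an adjusted p-value under 0.05 by edgeR in red. The 12 red points of the replication list all lie above 0, and Zbtb4, Ogt and Tet3 are the red points below 0.

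Germline genes that carry promoter methylation in somatic cells were read as a further list. Of 19 such genes, 6 had a row in the table and 1, Brdt, had enough counts to be tested. Brdt had 36.4 ± 7.37 normalised counts in Mitol KO and 56.7 ± 16.4 in Control HSCs (SD, n = 4), and its log2 fold change of -0.66 did not pass (adjusted p = 0.158 by edgeR). The summed level of the 6 genes ran from 41.6 to 69.7 normalised counts in Mitol KO and from 65.9 to 107 in Control libraries.

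Markers of other cells were read in the same libraries. The summed level of 7 neutrophil markers ran from 16.9 to 36.6 normalised counts in Mitol KO libraries. In Control libraries it ran from 50.1 to 88.9. All were low, with no marker above 51.2 in any library. S100a9 was at 0 in all Mitol KO libraries, and S100a8 reached at most 1.57 there and 51.2 in Control libraries. Elane, Mpo and Camp had lower means in Mitol KO, with overlap. Ltf went the other way, also with overlap, at means of 5.26 in Mitol KO and 2.06 in Control libraries. Ngp, the only neutrophil marker tested, was flat between groups, at 0.0013 on the log2 scale. The 4 B-cell markers with a row summed to 136 to 150.3 in Mitol KO and 145 to 204 in Control libraries, mostly from Cd79b, and the 3 T-cell markers to 189 to 259 and 172 to 200.5, mostly from Lck. Of 8 erythroid markers, which summed to 918 to 3410 in Mitol KO and 256 to 737 in Control libraries, 4 were tested and 1 rose, Hbb-bt (log2 fold change of 1.29, adjusted p = 0.0442 by edgeR). Of 4 tested megakaryocyte markers, with sums of 2381 to 5085 and 3143 to 4827, Pf4 fell (-1.69, adjusted p = 0.0202 by edgeR). Of these 4, only Itga2b had a log2 fold change above 0, at 0.49, which did not pass (adjusted p = 0.476 by edgeR). Of 4 tested markers of macrophages and dendritic cells, with sums of 636 to 753 and 799 to 2003, H2-Aa fell (-2.10, adjusted p = 0.0154 by edgeR). Of these 4, 2 had log2 fold changes above 0 that did not pass, Csf1r (0.11) and Cd68 (0.38). Of 2 tested mast cell and basophil markers, with sums of 3303 to 4331 and 4549 to 4847, Gata2, which HSCs also express, fell (-0.39, adjusted p = 0.0287). Among the Mitol KO libraries, globin transcripts were highest in replicate 3, and Klf1, Epor and Car1 were highest in replicate 4, at 103, 192 and 523 normalised counts, where Dnmt1 and Uhrf1 were lowest. Control replicate 4, which was the lowest library for Dnmt1 and Uhrf1 and the highest for Tet2, had 1436 normalised counts of Cd74 and 415 of H2-Aa, both genes of antigen presentation, where no other Control library exceeded 451 and 188. The part of other cells in the differences of the members was not tested. Without Control replicate 4, log2 fold changes were 0.68 for Dnmt1, 0.92 for Uhrf1 and -0.36 for Tet3, with adjusted p-values of 0.111, 0.116 and 0.0365 by edgeR. Without Mitol KO replicate 3, log2 fold changes were 0.86 for Dnmt1, 1.24 for Uhrf1 and -0.26 for Tet3, with adjusted p-values of 0.0609, 0.0656 and 0.132 by edgeR.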

How the data were processed

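RNA-seq covered 8 libraries, each from 100 sorted HSCs. The authors aligned reads to mm39 with STAR, handled alignments with SAMtools and deposited counts per gene from Subread, without normalisation. The annotation and strand setting are not given in the sources used here. Of 23094 rows, 1029 without a symbol (0.335% to 0.467% of a library's counts) were left out, and 0 columns were unmapped. Genes passing edgeR's default expression filter, 16444 in all, were tested with its quasi-likelihood test (version 4.0.16, R 4.3.3, TMM, group as the only term) and Benjamini-Hochberg adjustment at 0.05. DESeq2 (version 1.42.0) gave size factors. Alternatives were other scalings and filters, DESeq2, limma-voom (limma version 3.58.1), the replicate block, a threshold of 0.1, another gene length, another log scale for the ratio of members, and each library left out. Fits were tested on simulated counts.

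Members and lists were chosen with earlier results of these data known. Named were all members, Marchf5, list genes past the threshold, and the genes correlating best with Dnmt1, Uhrf1, Dnmt3a and Tet2 (5 over libraries, 3 after removing group means). List genes that did not pass were picked for their role, after values were seen. Correlations used log2 CPM with a prior count of 2, and other log2 levels a pseudocount of 0.5 normalised counts. Positions came from GENCODE vM39 on GRCm39 and promoter sequences from RefSeq on GRCm38.p6. Coordinates of the builds were not converted. Protein sequences were not used here. No molecular identifiers are named in the sources used here, so counts are of reads, not of molecules. Single values of some list genes are not reported here.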

Additional observations from a re-analysis of the deposited data

Results flagged for a closer look

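Single libraries stood apart in 8 of 160 groups of 4 libraries, which covered the members, their ratios and shares, and the other genes whose values are given. Chance gives about 1 in 20. Each gap to the nearest library was above Dixon's 95% critical value for 4 samples, as a share of the group's range. The values were never those of a member gene. Among genes tied to DNA methylation, Control replicate 3 had 15.1 normalised counts of Gadd45g where the other Control libraries had 25.1 to 26.9. Mitol KO replicate 3 had 1048 of Hbb-bs (others 3.91 to 19.7), 388 of Hba-a1 (others 0 to 5.29) and 4609 of Hlf (others 5807 to 5968). Control replicate 1 had 7.91 of Hba-a1 (others 1.88 to 2.69), and Control replicate 4 had 1436 of Cd74 (others 397 to 451) and 415 of H2-Aa (others 157 to 188). Mitol KO replicate 4 had 4318 of Gata2 (others 3294 to 3433).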

How the results depend on the processing

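The 7 members were refitted under each alternative. The count of genes called, 1386, was 2317 with DESeq2 and 2585 at a threshold of 0.1, and from 359 (without Control replicate 2) to 2501 (without Mitol KO replicate 4) with 1 library left out. The count of members called, 3, was 2 with DESeq2, where Dnmt1 (adjusted p = 0.00331) and Tet3 (adjusted p = 0.0145) passed. Without an expression filter it was 2, and with limma-voom 1, where Tet3 passed. With 1 library left out it ran from 0 to 3. It was 0 without Mitol KO replicate 1, 2 or 3 or Control replicate 2 or 3. Among the genes called, 55.6% were higher in Mitol KO, against 42.1% when scaled by library totals only. The mean difference of the ratio of maintenance to other members ran from 0.86 to 1.29 with 1 library left out.

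Replicate numbers are shared by the groups, but over all tested genes the deviations of same-numbered libraries correlated at only -0.070 to 0.080. The numbers were thus not taken as pairs, and not every library correlated best with its own number. Some members did follow the numbers. Uhrf1 and Dnmt3b fell from replicate 1 to replicate 4 in both groups, and Tet2 was highest in replicate 4 of both. What same-numbered libraries share was not tested. With the replicate block, 1652 genes and 2 members were called. Adjusted p-values by edgeR were then 0.00973 for Dnmt1, 0.00225 for Uhrf1 and 0.0514 for Tet3.

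Dnmt1, Uhrf1 and Tet3 kept their direction in every refit. Dnmt1 missed the threshold with limma-voom (adjusted p = 0.0502) and Tet3 without an expression filter (adjusted p = 0.0704, edgeR). The log2 fold change of Dnmt3b turned to 0.012 with DESeq2 size factors, 0.026 without a filter and 0.011 with DESeq2, and ran from -0.19 to 0.14 with 1 library left out. That of Tet1 turned to 0.0082 without a filter and ran from -0.037 to 0.045 with 1 library left out. The causes were not tested. Each group has 4 libraries of 100 cells, which limits precision.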

Other observations

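Tet2 was, of all members, the one whose level mirrored that of Uhrf1 most closely, a pattern chosen after the values were seen. Over the 8 libraries, log2 levels of Uhrf1 and Tet2 had a Pearson r of -0.99 and a Spearman rho of -0.95. Without Mitol KO replicates 1 and 2, the libraries farthest from the median of Uhrf1, r was -0.98, and it was -0.98 in the 4 Mitol KO and -0.99 in the 4 Control libraries. The Control library with the fewest Uhrf1 counts, replicate 4 at 894, had the most Tet2 counts of all libraries, at 2048. Among 12012 genes compared with Uhrf1, Tet2 had the most negative r, and after the group means were taken out it ranked 2 from the most negative, behind the RNA helicase gene Ddx17. Tet3 did not share this order. Its r with Uhrf1 was -0.34 over the 8 libraries and 0.78 after the group means were taken out. All these values rest on 8 libraries that share size factors and, before the means are removed, the difference between groups, and no p is given. In both groups replicate 4 was highest for Tet2 and lowest for Uhrf1, so the pattern cannot be told apart from a shared replicate order.

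Dnmt3b, which did not differ between the groups beyond their spread, followed Uhrf1 inside them. Its r with Uhrf1 was 0.84 in the 4 Mitol KO and 0.93 in the 4 Control libraries, and 0.59 over all 8. Both genes fell from replicate 1 to replicate 4 in each group, so these values cannot be told apart from a shared replicate order.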
